A study of Mus musculus with 8 samples.

Results

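Semaphorins, plexins and neuropilins were taken as the protein-coding genes of the mm9 annotation whose symbol begins with Sema and a digit or with Plxn, together with Nrp1 and Nrp2. The rule gave 31 of 22367 genes, namely 20 semaphorins, 9 plexins and 2 neuropilins on 17 chromosomes, and it used no measured value. LaminB1-DamID had been carried out in 3T3-L1 cells, a mouse fibroblast line that turns into adipocytes in culture. In this assay a bacterial methylase (Dam) fused to LaminB1, a protein of the nuclear lamina, marks GATC sites near the nuclear edge, and unfused Dam serves as the control. Lamina associated domains (LADs) are the stretches in which the fusion exceeds the control.

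The 4 conditions were undifferentiated preadipocytes at day 0, labelled untreated, adipocytes at day 9, labelled as carrying a control non-target shRNA, day 9 adipocytes with shRNA against Tmem120a (single knockdown), and day 9 adipocytes with shRNA against both Tmem120a and its paralog Tmem120b (double knockdown). Tmem120a encodes a transmembrane protein of the nuclear envelope. All cells received Dam or LaminB1-Dam by lentivirus, and each condition had 1 library of each, 8 in all. Each condition is therefore 1 list of LADs with no replicate, so no spread between cultures, test or p-value is given, and differences between lists describe these libraries. The labels name an shRNA for the adipocytes and none for the preadipocytes, and any part of it cannot be told apart from that of differentiation. The lists hold positions without scores, so depth and LAD strength are unknown, and no expression was measured in these libraries, so neither the knockdowns nor the activity of the genes could be checked from them.

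Semaphorins are secreted or membrane-bound ligands best known for steering growing axons, and also blood vessels and immune cells. Plexins are their receptors and signal through small GTPases. Class 3 semaphorins are secreted and mostly need a neuropilin as co-receptor, whereas classes 4 to 6 span the membrane and class 7 is held by a lipid anchor. Sema3c has been described as a factor secreted by fat cells.

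Between preadipocytes and adipocytes the ligand genes Sema3e and Sema3d gained LAD contact and Sema3c and Sema5a lost it. Sema3e was in LADs over 17.2% of its body in preadipocytes and over 96.2% in adipocytes, and Sema3d over 50.4% and 83.1%. Sema3c went from 48.0% in preadipocytes to 0% in adipocytes, and Sema5a from 35.7% to 0%. Among the receptors, Plxna4 fell from 34.1% to 7.95%. Over the whole genome the preadipocyte list held 3914 LADs with a median of 83.2 kb, and the adipocyte list 2542 with 103 kb. The part of this in these gene values was not tested. Of the 31 genes 22, or 71.0%, met no LAD in any of the lists, as did 63.7% of all protein-coding genes. The 22 included all of class 4, Sema7a, both neuropilins and each plexin other than Plxna4 and Plxnc1.

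**Figure D1:**
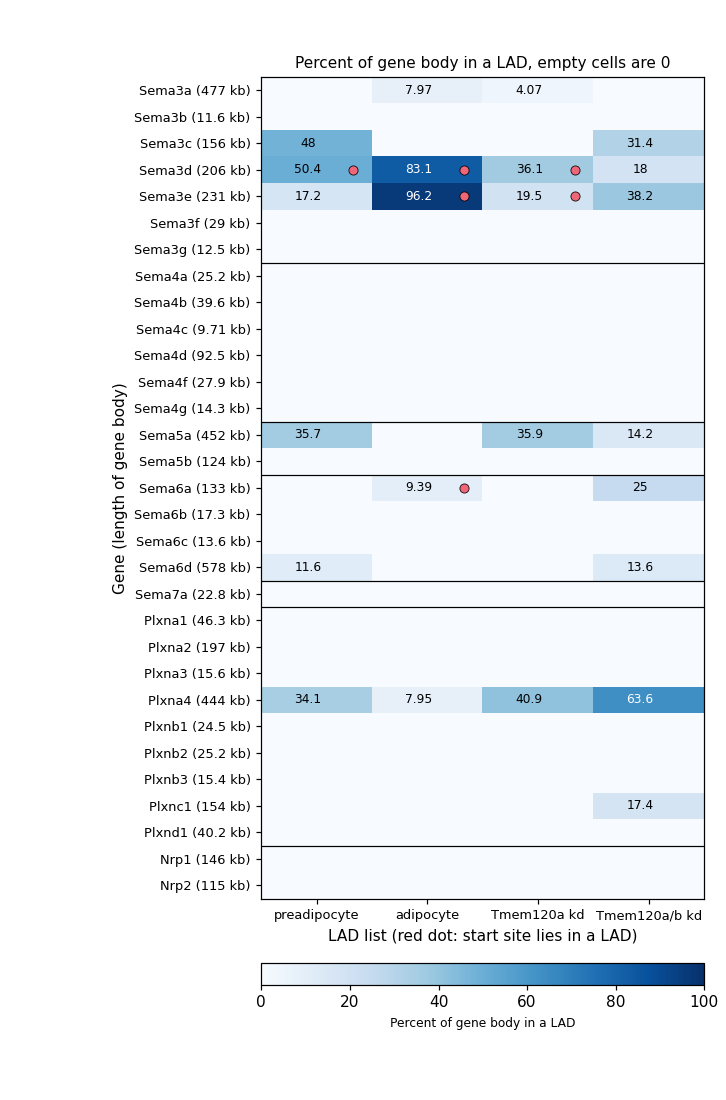
Percent of each gene body lying in a LAD (colour and number) for the 31 genes in the 4 LAD lists, with gene length in kb beside the name, lines between classes, and kd for knockdown. Filled cells belong to 9 genes, and a red dot marks a start site in a LAD, which is seen for Sema3d, Sema3e and Sema6a.

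The sequences before the start sites of Sema3d, Sema3e and Sema3c, the class 3 genes with the largest differences between lists, are shown first, because the LAD state of the Sema3d and Sema3e start sites differed between lists while that of Sema3c did not. Each is the 250 bases before the annotated start, read from the mm9 genome on the plus strand. Capitals mark CG dinucleotides, which read the same on both strands, and GATC, the site that Dam methylates. The GATC of Sema3d stands directly before a CG, and the motifs share no letter in these windows.
Sema3d, chr5:12382916-12383165: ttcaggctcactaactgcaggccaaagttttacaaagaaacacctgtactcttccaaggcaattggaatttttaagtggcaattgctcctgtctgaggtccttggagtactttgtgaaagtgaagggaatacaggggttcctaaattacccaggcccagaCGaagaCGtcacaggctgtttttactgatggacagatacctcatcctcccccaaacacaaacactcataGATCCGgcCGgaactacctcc
Sema3e, chr5:14025026-14025275: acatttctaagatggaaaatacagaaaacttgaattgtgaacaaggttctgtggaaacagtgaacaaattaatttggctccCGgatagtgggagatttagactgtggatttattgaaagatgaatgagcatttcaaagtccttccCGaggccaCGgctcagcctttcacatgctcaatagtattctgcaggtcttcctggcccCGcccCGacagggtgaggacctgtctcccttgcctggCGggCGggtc
Sema3c, chr5:17079849-17080098: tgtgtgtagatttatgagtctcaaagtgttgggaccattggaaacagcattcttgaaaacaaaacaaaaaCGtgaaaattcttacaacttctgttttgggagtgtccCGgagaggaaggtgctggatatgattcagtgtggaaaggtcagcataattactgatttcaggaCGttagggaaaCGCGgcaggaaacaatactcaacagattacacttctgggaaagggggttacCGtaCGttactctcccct

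These 3 windows held 4 CG in Sema3d, 7 in Sema3e and 7 in Sema3c, with a GC content of 46.8%, 48% and 42.8%. Over the 31 genes the median was 12 CG and 64% GC, and over all protein-coding genes 8 CG and 54% GC. Windows with at least 10 CG made up 61.3% of the 31 genes and 46.9% of all genes. Among all genes, the median GC was 45.6% where the start site lay in a LAD of any list and 57.2% where it lay in none. Sema6a, the other gene whose start site changed state, had 18 CG and 67.2% GC and so did not share the low GC of Sema3d and Sema3e. GATC occurred before 40.2% of all start sites, and before that of Sema3d among the 3 shown.

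The body of 6 of the 31 genes met a LAD in the preadipocyte list, against 26.2% of all protein-coding genes. The adipocyte list met 5 (23.3% of all genes), the single knockdown list 5 (27.5%) and the double knockdown list 8 (29.5%). With LADs under 100 kb left out the counts were 3, 3, 1 and 1, so the double knockdown list no longer met the most genes. No share of all genes was computed at this setting, so these counts have no background. Over any of the 4 lists the count was 9, or 29.0% of the 31 genes, against 36.3% of all genes. Sema3d, Sema3e and Plxna4 met a LAD in all 4 lists, as 19.3% of all genes did, and 6 genes in some lists but not all (16.9%). No member lay wholly inside a LAD in any list, whereas 25.5% of all genes did in at least 1.

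A start site is part of the body, so by definition start sites in LADs cannot outnumber bodies that meet one. In preadipocytes the start site of Sema3d alone lay in a LAD (23.3% of all genes), and in adipocytes those of Sema3d, Sema3e and Sema6a (21.2%). The single knockdown list held the start sites of Sema3d and Sema3e (22.6%), and the double knockdown list held none of the 31, against 23.8% of all genes. With any annotated transcript start counted, the double knockdown list held 1, another annotated start of Sema6d. Over any list, 3 of the 31 start sites lay in a LAD, compared with 30.4% of all genes. The start sites outside LADs lay at a median distance to the nearest LAD of 338, 460, 364 and 178 kb in the order preadipocyte, adipocyte, single and double knockdown. For all genes these medians were 374, 521, 240 and 209 kb.

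LAD contact among the members went with gene length. The 9 genes that met a LAD had a median length of 231 kb, between 133 and 578 kb, and the 22 that met none a median of 25.2 kb, between 9.71 and 197 kb. The 31 genes were split at 100 kb, a border chosen after these values were seen. None of the 18 genes under 100 kb met a LAD in any list, although 33.3% of all genes of that length did. Of the 13 longer genes 9 did, against 61.2% of all genes of at least 100 kb. Counted list by list, the longer genes meeting a LAD were 6, 5, 5 and 8 of 13, and the shares of all long genes were 41.9%, 36.2%, 48.9% and 52.6%. The part that length itself plays in these counts was not tested. Every LAD in the lists was at least 15.0 kb long, and 5 members (Sema3b, Sema3g, Sema4c, Sema4g and Sema6c) were shorter than that. The density of GATC sites, where the assay can report, was between 1.62 and 3.01 per kb over the 31 genes, and the 18 short genes held 21 to 235 sites each.

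**Figure D2:**
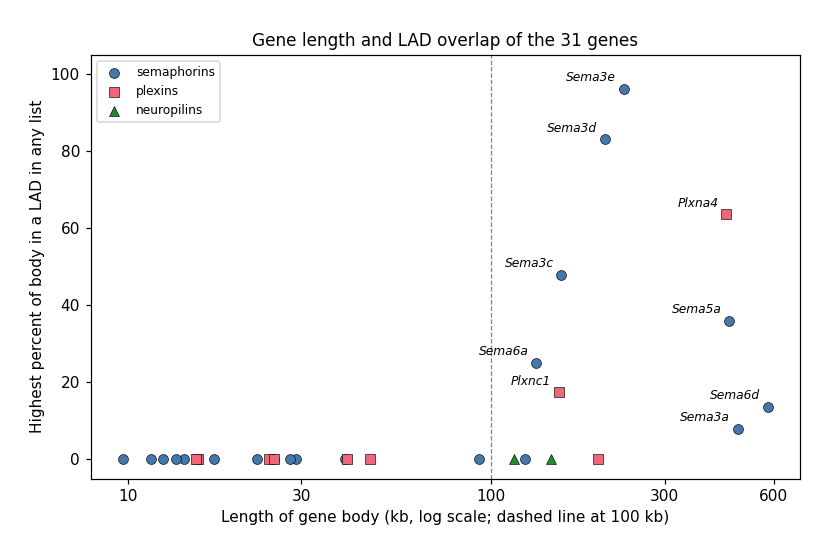
Length of each gene body in kb on a log axis against the highest percent of that body in a LAD in any of the 4 lists, 1 point per gene. All points above 0 lie to the right of the dashed line at 100 kb, between 7.97% for Sema3a and 96.2% for Sema3e.

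Released regions, as called here, are stretches that the authors listed as in LADs of preadipocytes and not of adipocytes, and recruited regions are the reverse. Released regions met 4 of the 31 genes, Sema3c, Sema5a, Sema6d and Plxna4, and 5.76% of all genes (15.8% of those of at least 100 kb). Recruited regions met another 4, Sema3a, Sema3d, Sema3e and Sema6a, and 3.08% of all genes (12.3% of the long ones). Together 8 of the 31 genes met a differential region, or 25.8%, against 8.62% of all genes and 26.3% of the long ones. All 8 were over 100 kb, where they made up 61.5% of 13. No start site of the 31 lay in a released region (3.51% of all genes), and those of Sema3e and Sema6a lay in recruited regions (1.49%). Thus each of the 4 genes met by released regions was met within its body, away from the start.

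Among the class 3 ligands, Sema3a, Sema3d and Sema3e lie within 1.87 Mb of chromosome 5 and Sema3c 2.82 Mb further on. From the start of Sema3d to the end of Sema3e, 13.9% of the DNA lay in LADs in preadipocytes, 53.6% in adipocytes, 23.1% in the single knockdown and 9.00% in the double knockdown. Recruited regions made up 39.6% of this stretch and released regions 0%. In the stretch between Sema3e and Sema3c the shares were 38.8%, 39.1%, 39.2% and 36.1%, with losses and gains that partly cancelled. The DNA that differed in LAD state between preadipocytes and adipocytes made up 39.6% of the first stretch and 5.64% of the second. Between adipocytes and the single knockdown it was 35.9% and 6.77%, and between adipocytes and the double knockdown 44.6% and 11.9%.

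**Figure D3:**
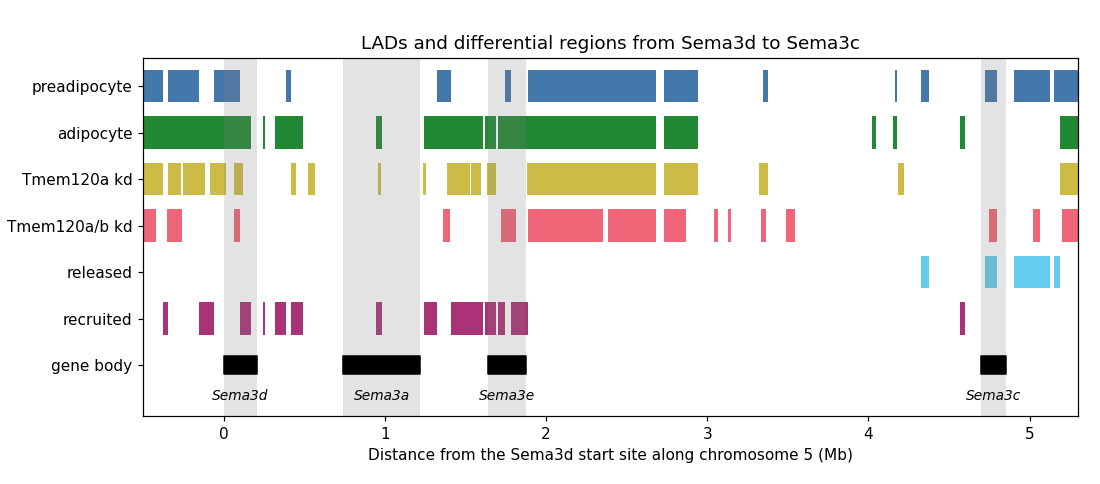
LADs of the 4 lists and the released and recruited regions along chromosome 5, against distance from the Sema3d start site in Mb, with the bodies of 4 class 3 semaphorin genes in black and shaded, and kd for knockdown. Recruited regions lie in and between Sema3d, Sema3a and Sema3e, and others lie before Sema3d and between Sema3e and Sema3c. Released regions lie in Sema3c and on both sides of it.

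Sema3e (chr5:14025276-14256689, plus strand, 231 kb) encodes a secreted ligand that binds Plxnd1 without a neuropilin. Its body was in LADs over 17.2% in preadipocytes, 96.2% in adipocytes, 19.5% in the single knockdown and 38.2% in the double knockdown. Adipocytes stood apart as the list with nearly the whole gene in LADs. Of its 17 exons, 3 met a LAD in preadipocytes, 17 in adipocytes, 1 in the single knockdown and 3 in the double knockdown. The 2 knockdown lists held different parts of the gene. The single knockdown LAD of 54.1 kb covered the start site and reached into intron 1, and the double knockdown LAD of 88.4 kb ran from intron 1 to intron 4, leaving the start site 81.7 kb outside. The adipocyte LAD over the 3′ part was 980 kb long and went on over Pclo, a gene for a presynaptic scaffold protein, which lay in LADs over 100% in 3 lists and 90.6% in the double knockdown.

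Sema3d (chr5:12383166-12588943, plus strand, 206 kb), a secreted ligand of neural and vascular guidance, had its start site in a LAD in 3 lists. Its body share was 50.4% in preadipocytes, 83.1% in adipocytes, 36.1% in the single knockdown and 18.0% in the double knockdown. The adipocyte LAD reached 171 kb into the gene, to intron 11, and the preadipocyte LAD 104 kb, to intron 4. Both covered the start site. The single knockdown share minus that of adipocytes, -46.96 points, was -24.20 with gaps under 50 kb closed and -83.07 with LADs under 100 kb left out. The latter setting dropped the single knockdown LAD over the start site, which at 99.25 kb was just under the limit, and the other of 57.3 kb. In the double knockdown a single LAD of 37.1 kb was left between intron 2 and intron 4, and the start site lay 66.3 kb outside. Exons in LADs numbered 4, 11, 5 and 2 of 18 in the order of the lists.

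Sema3a (chr5:13125593-13602565, plus strand, 477 kb), the classic axon repellent of the family, differed little in comparison. Its share was 0% in preadipocytes, 7.97% in adipocytes, 4.07% in the single knockdown and 0% in the double knockdown. The recruited region of 38.0 kb lay upstream of the transcript with the longest coding sequence, which starts 271 kb into the annotated gene, and none of its 18 exons met a LAD in any list. A body limited to that transcript would therefore be at 0 in all 4 lists.

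Sema3c (chr5:17080099-17236086, plus strand, 156 kb) had 1 LAD in preadipocytes and 1 in the double knockdown, and none in the other lists. The body share was 48.0% in preadipocytes, 0% in adipocytes, 0% in the single knockdown and 31.4% in the double knockdown. The preadipocyte LAD, 74.8 kb from intron 2 into exon 8, is also the released region, and 63.0% of it lay in the double knockdown LAD, which ran over 49.0 kb from intron 2 to intron 9. With LADs under 100 kb left out, both shares became 0. Its start site stayed outside LADs in every list, at 26.0, 99.0, 478 and 53.6 kb from the nearest one. The borders of the released region are given because they place the change inside the gene, in intron 2 and in exon 8, on the plus strand with the GATC of the border in capitals.
Sema3c, start of the released region, chr5:17106034-17106085: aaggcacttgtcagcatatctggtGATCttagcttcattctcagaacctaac
Sema3c, end of the released region, chr5:17180861-17180912: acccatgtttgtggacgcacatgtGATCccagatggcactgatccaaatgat

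Beside Sema3c, 51.4 kb away, lies Cd36, which encodes a fatty acid transporter of adipocytes. It was in LADs over 100% in preadipocytes and 0% in the other 3 lists. The released region over Cd36 was 229 kb long, and 19.1% of it lay in LADs in the double knockdown and 0% in the single knockdown. The neighbouring released regions therefore differed in the double knockdown, at 63.0% for Sema3c and 19.1% for Cd36. The remaining class 3 genes, Sema3b, Sema3f and Sema3g, are 11.6 to 29.0 kb long and had start sites at least 168 kb from any LAD.

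In class 5, Sema5a (chr15:32174568-32626096, plus strand, 452 kb), a membrane ligand with thrombospondin repeats, was in LADs over 35.7% in preadipocytes and 0% in adipocytes. In the single knockdown the share was 35.9%, about the preadipocyte level, and in the double knockdown 14.2%. Both knockdown shares became 0 with LADs under 100 kb left out. The 35.7% came from 2 LADs and the 35.9% from 4, so that equal shares covered partly different DNA. Of the 2 released regions, the one of 70.7 kb from intron 3 to intron 5 lay in LADs over 83.9% in the single knockdown and 72.2% in the double knockdown. The other, of 108 kb from intron 9 past the 3′ end, lay in LADs over 36.2% and 0%. Exons in LADs numbered 16, 0, 9 and 3 of 23 in the order of the lists. The annotated start site was outside LADs throughout, at 33.0 to 110 kb. The transcript with the longest coding sequence starts 173 kb into the gene, and that start was outside LADs in every list too. The LADs in the body all lay downstream of it. Sema5b, the relative of Sema5a, of 124 kb, met no LAD, and its start site was at least 546 kb from one.

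The borders of the 70.7 kb released region of Sema5a are shown because this region was back in LADs in both knockdown lists. They lie in intron 3 and intron 5, on the plus strand, with the GATC of the border in capitals.
Sema5a, start of the released region, chr15:32408085-32408136: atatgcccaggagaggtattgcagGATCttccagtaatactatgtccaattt
Sema5a, end of the released region, chr15:32478814-32478865: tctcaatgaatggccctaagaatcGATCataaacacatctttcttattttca

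Class 6 ligands span the membrane and bind plexins of the A group directly. Sema6a (chr18:47395252-47528524, minus strand, 133 kb) was at 0% in preadipocytes, 9.39% in adipocytes, 0% in the single knockdown and 25.0% in the double knockdown. In adipocytes the LAD covered the start site and the first 12.5 kb, down to intron 1, as the edge of a LAD of 2333 kb. In the double knockdown it was a LAD of 33.3 kb at the other end of the gene, from intron 16 onwards. The share was thus higher in the double knockdown than in adipocytes while the start site had left the LAD, to 92.1 kb. This direction depended on that short LAD, and the difference of 15.6 points became -9.39 with LADs under 100 kb left out. Of 7 annotated coding transcript starts, 4 lay in a LAD in adipocytes and 0 in each of the other lists.

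Sema6d (chr2:123915705-124493506, plus strand, 578 kb), the longest of the 31 genes, was in LADs over 11.6%, 0%, 0% and 13.6% in the order preadipocyte, adipocyte, single knockdown and double knockdown. The LADs of preadipocytes numbered 2 and those of the double knockdown 4, and all lay upstream of the transcript with the longest coding sequence, which starts 521 kb into the gene. Of the released regions, the one of 26.8 kb lay in LADs over 58.5% in the double knockdown, and the one of 40.5 kb over 0%. The annotated start itself lay just outside a LAD in all 4 lists, at 3.18, 12.3, 8.13 and 4.15 kb. With gaps under 50 kb closed it lay in a LAD in the double knockdown, and the body share there exceeded that of adipocytes by 24.4 points in place of 13.6. This difference became 0 with LADs under 30 kb left out. With those under 100 kb left out, the difference between preadipocytes and adipocytes became 0 as well. Sema6b and Sema6c are under 18 kb long and met none.

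Among the receptors, Plxna4 (chr6:32094565-32538192, minus strand, 444 kb), which answers to Sema3a together with a neuropilin and to Sema6a alone, met LADs in every list. Its body share was 34.1% in preadipocytes, 7.95% in adipocytes, 40.9% in the single knockdown and 63.6% in the double knockdown. Adipocytes were lowest and the double knockdown highest, above preadipocytes as well. With LADs under 100 kb left out, the single knockdown exceeded adipocytes by 4.25 points in place of 32.9. The double knockdown then exceeded them by 33.1 in place of 55.7. In preadipocytes the LADs lay over the 3′ part and met 29 of 32 exons. In adipocytes a LAD of 35.3 kb between intron 4 and intron 5 met 1 exon, in the single knockdown LADs met 7 and in the double knockdown 23. The released region of 108 kb at the 3′ end lay in LADs over 20.6% in the single knockdown and 76.1% in the double knockdown.

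Both knockdown lists also held LADs in the 5′ part of Plxna4 that neither the preadipocyte nor the adipocyte list had. In intron 1 the single knockdown LAD was 55.2 kb long, 82.3% of it in a double knockdown LAD, and in intron 3 it was 42.8 kb long, 100% of it in one. The double knockdown LADs there were 47.5 and 87.9 kb long. The start site was outside LADs as listed, at 18.7, 64.8, 14.4 and 24.1 kb, but with gaps under 50 kb closed it lay in a LAD in the single knockdown. Plxna4 was also the one gene with DNA both lost from and gained by adipocyte LADs. A piece of 14.8 kb in intron 4 lay in the adipocyte LAD and in no preadipocyte LAD, without being among the recruited regions listed by the authors. Likewise a preadipocyte LAD of 25.0 kb, between exon 4 and intron 4, was at 0% in adipocytes and at 100% in both knockdowns, and is not among the released regions they listed. The inner border of the released region, which separates the DNA kept in LADs in adipocytes from that released, is shown on the plus strand of the genome with its GATC in capitals.
Plxna4, end of the released region toward the gene start, chr6:32200329-32200380: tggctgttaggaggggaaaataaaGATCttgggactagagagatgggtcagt

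Plxnc1 (chr10:94253617-94407212, minus strand, 154 kb), the receptor of Sema7a, met a LAD in the double knockdown list alone, over 17.4% of its body, and was at 0% in the other 3 lists. That LAD, 26.8 kb from exon 2 to intron 4, met 3 of 31 exons and overlapped no differential region. With LADs under 30 kb left out Plxnc1 met none in any list. The distance from its start site to the nearest LAD was 2066 kb in preadipocytes and 1954 kb in adipocytes, against 310 kb in the single and 21.9 kb in the double knockdown. Of its 4 nearest neighbours, Ccdc41, Cradd and Socs2 were at 0% in all 4 lists, and Tmcc3, 200 kb away, had 0%, 0%, 8.12% and 21.6% of its body in LADs.

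**Figure D4:**
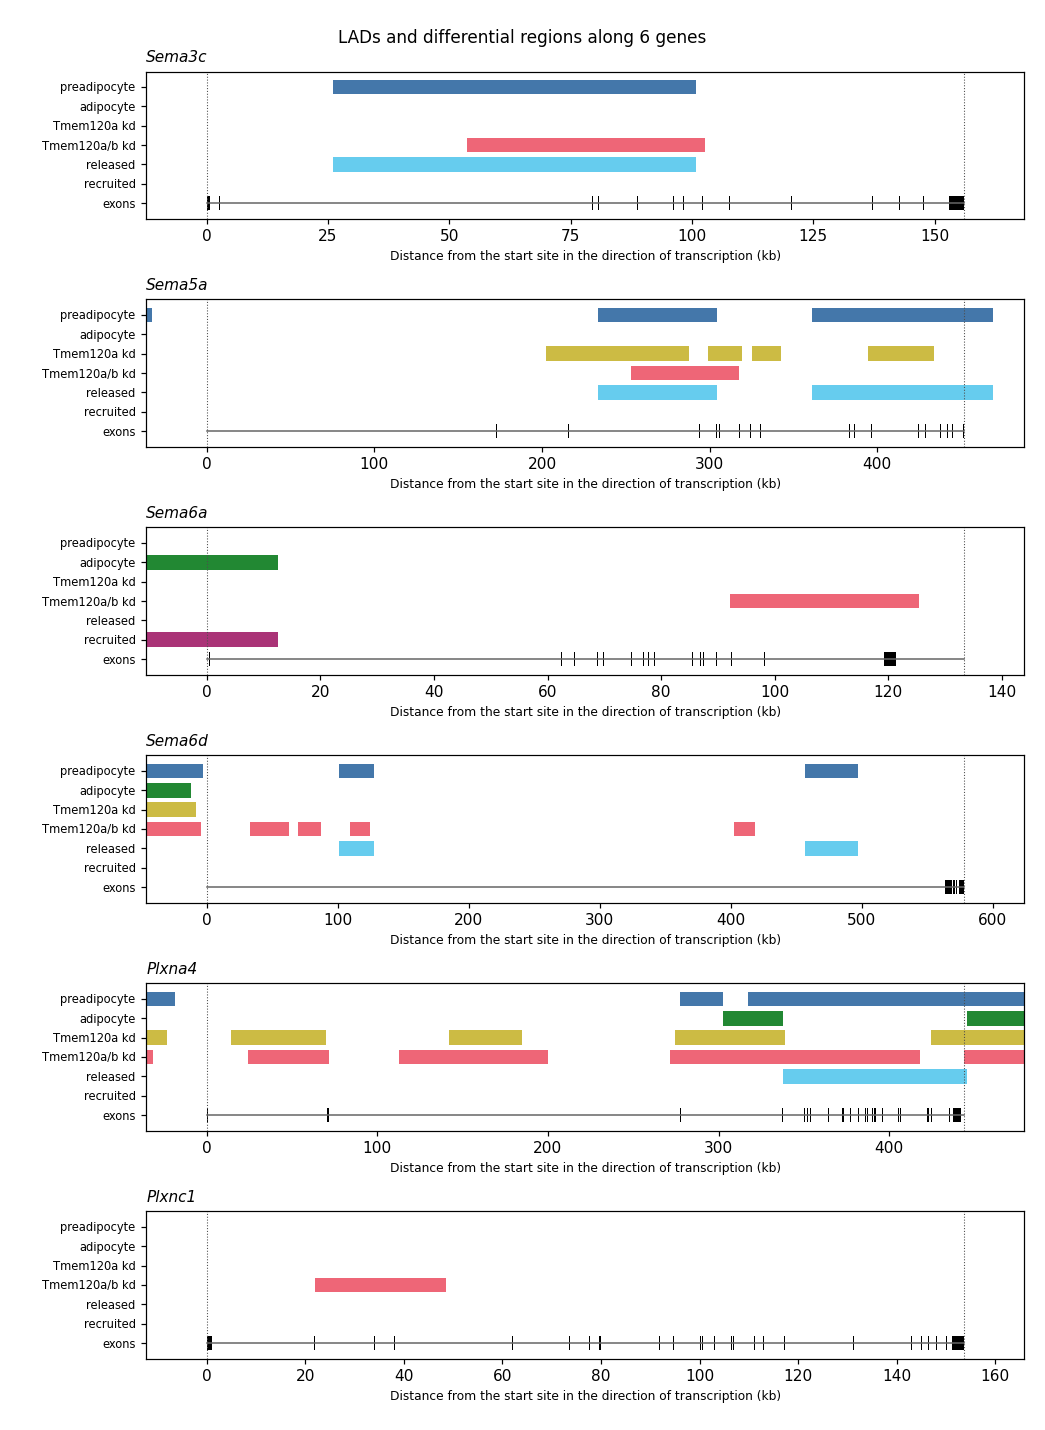
LADs of the 4 lists, released and recruited regions, and exons of the transcript with the longest coding sequence for 6 genes, against distance from the gene start in kb in the direction of transcription; dotted lines mark the gene ends, and kd means knockdown. The LADs cover parts of the bodies, in Sema5a, Sema6a and Plxna4 running past a gene end in some lists, and among these 6 genes a start site lies in a LAD only for Sema6a in adipocytes.

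The other 7 plexins met no LAD. Plxna2 was the longest of them, at 197 kb, and its start site lay 52.6, 53.6, 25.7 and 6.70 kb from the nearest LAD in the order of the lists. Plxnb1, a receptor of Sema4d, came closest among the genes under 100 kb, at 62.3, 48.0, 36.9 and 36.5 kb. Plxnd1, the receptor of Sema3e, had its start site at least 463 kb from any LAD, while its ligand gene lay in LADs over 96.2% in adipocytes. Nrp1 and Nrp2, co-receptors of the class 3 ligands and of vascular growth factors, are 146 and 115 kb long, and their start sites were at least 221 and 63.5 kb from a LAD. Class 4 genes, which signal mainly through plexins of the B group, were at least 165 kb from one, with Sema4d the longest at 92.5 kb. Sema7a was at least 947 kb from one. Differences between lists were therefore spread over ligands of classes 3, 5 and 6 and over 2 receptors.

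The knockdown lists were then each set against the adipocyte list, which both share. They hold more and shorter LADs over the whole genome, 5723 in the single knockdown and 6971 in the double knockdown against 2542 in adipocytes, with medians of 59.1, 60.7 and 103 kb. The part of this in the gene values was not tested. Shares of all genes and of those of at least 100 kb (long genes) are given in brackets. In the single knockdown Sema5a met a LAD and had met none in adipocytes (6.13% of all genes, 14% of long genes). Sema6a met none and had met one (1.95% and 1.29%). The body share was higher than in adipocytes for Sema5a and Plxna4 (8.01% of all genes, 22.9% of long genes). It was lower for 4 genes, Sema6a and the chromosome 5 neighbours Sema3a, Sema3d and Sema3e (4.86% and 16.6%). With LADs under 100 kb left out, it was higher for Plxna4 alone and lower for Sema3d, Sema3e and Sema6a. The start site of Sema6a was in a LAD in adipocytes and not in this list (2.44% and 3.83%).

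In the double knockdown 4 genes met a LAD that had met none in adipocytes, Sema3c, Sema5a, Sema6d and Plxnc1 (8.36% and 18%). With LADs under 30 kb left out Sema6d and Plxnc1 met none there, and with those under 100 kb left out none of the 4 did. Sema3a met none and had met one in adipocytes (2.1% and 1.54%). The body share was higher for 6 genes, Sema3c, Sema5a, Sema6d, Plxnc1, Sema6a and Plxna4 (10.4% of all genes, 27.7% of long genes). It was lower for the chromosome 5 neighbours Sema3a, Sema3d and Sema3e (5.12% and 17.2%). With LADs under 100 kb left out, it was higher for Plxna4 alone and lower for Sema3d, Sema3e and Sema6a. All 3 start sites that lay in adipocyte LADs, those of Sema3d, Sema3e and Sema6a, lay outside LADs here. Of all genes 2.69% changed in this way, and of long genes 5.58%. Among the 4748 genes with a start site in an adipocyte LAD the share was 12.7%. Among the 645 long genes with one there, 134 changed in this way, and all 3 members here are long. Sema3d and Sema3e also lie in the same 1.87 Mb of chromosome 5 and do not count as independent. No member had a start site in a LAD here that was outside in adipocytes, compared with 5.28% of all genes.

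Region by region, 6 released and 6 recruited regions met the genes. Of the released ones, 1 was in LADs over at least 50% of its length in the single knockdown, against 35.7% of all released regions. In the double knockdown there were 4 of 6, namely those of Sema3c and Plxna4, the 70.7 kb region of Sema5a and the 26.8 kb region of Sema6d, against 46.7% of all. Recruited regions in LADs over less than 50% of their length numbered 4 of 6 in the single knockdown (46.3% of all) and 6 of 6 in the double knockdown (56.1%). The recruited region over the Sema3e start, 71.1 kb long, was at 76.2% in the single knockdown and 0% in the double knockdown. The next one, of 46.5 kb in intron 1, was at 0% and 47.0%, and the third, of 101 kb over the 3′ part, at 4.27% and 26.5%. The region of Sema3d was at 26.0% and 0%, that of Sema3a at 51.1% and 0%, and that of Sema6a at 0.476% and 0%. The regions overlap between lists to very different degrees within single genes, most plainly within Sema3e and Sema5a. Regions of 1 gene are neighbours and do not count as independent. The same holds for all recruited regions but that of Sema6a. They lie at Sema3d, Sema3a and Sema3e, within or at the edge of the 1.87 Mb stretch of chromosome 5.

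**Figure D5:**
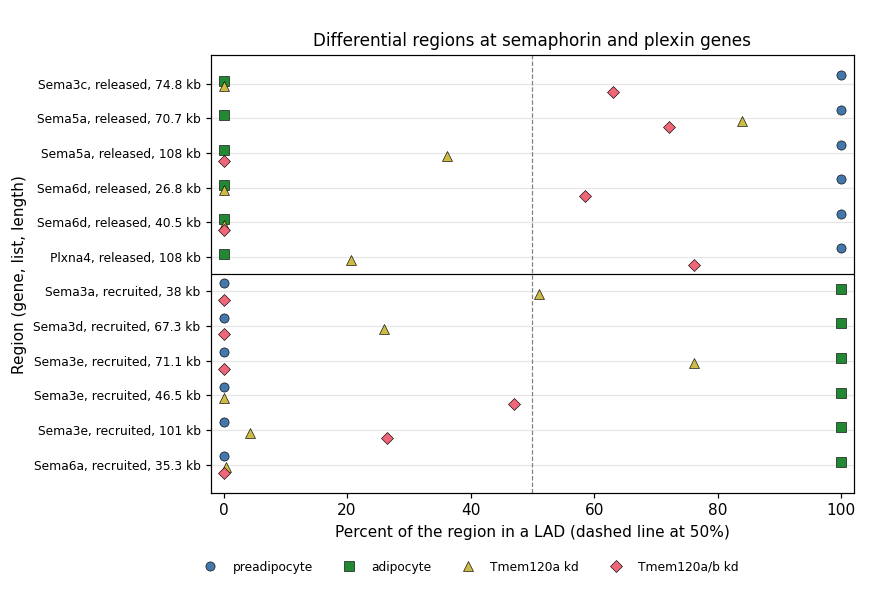
Percent of each of 12 differential regions lying in a LAD in the 4 lists, with released regions above the line and recruited regions below it, and kd for knockdown. Preadipocyte and adipocyte points are at 0 or 100 by the definition of the regions, and the double knockdown points of all recruited regions lie left of the dashed line at 50%, the highest at 47.0%.

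For the wider pathway, 42 genes acting with semaphorins and plexins were listed (collapsin response mediators, adhesion co-receptors, small GTPases and their regulators, and kinases). Their bodies met a LAD in 5, 4, 4 and 7 cases in the order of the lists, at most 16.7% of 42, against 26.2%, 23.3%, 27.5% and 29.5% of all genes. The 42 genes had a median length of 48.8 kb, against 15.4 kb for all genes, and no share of genes of like length was computed for them. Their start sites lay in one in 4, 2, 3 and 4 cases, at most 9.52%, against 23.3%, 21.2%, 22.6% and 23.8% of all genes. The start sites of 2 differed between preadipocytes and adipocytes, Crmp1 and Nrcam, and both were in a LAD in preadipocytes and outside in adipocytes. Both lay in released regions, or 4.76% of 42 against 3.51% of all genes. In recruited regions there were 0, against 1.49% of all genes. Crmp1, a cytoplasmic mediator of Sema3a signals, had body shares of 20.6%, 0%, 12.8% and 26.6%. Nrcam, a cell adhesion molecule, had 95.8%, 90.9%, 95.2% and 95.4%, so that its start site differed while nearly all of its body stayed in LADs.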

How the data were processed

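LaminB1-Dam and Dam libraries of 3T3-L1 cells were compared. As deposited, the lists hold positions and no value. The authors mapped reads to mm9 (BWA is among the tools they name), computed log ratios of fusion over unfused Dam for each DpnI fragment and called LADs by segmentation with DNAcopy. Lists were matched to conditions by their abbreviations. The criterion behind the 2 differential lists is only partly stated.

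List borders fell on GATC of the NCBIM37 sequence (mm9) for 96.5% to 99.8% of borders. Starts and ends were both read as the base after the DpnI cut, and shifting them by 1 bp changed 0 member states. Genes came from GENCODE vM1 (22367 protein-coding genes on 21 chromosomes). A body ran from the first to the last annotated base of a gene and its start site was the 5′ end. Exons are those of the transcript with the longest coding sequence. A body met a LAD with 1 bp shared. Overlaps were computed by bp in Python 3.11.15 with numpy 2.4.6, checked on 200 simulated lists with 0 mismatches, and plotted with matplotlib 3.10.9. Of the other guidance list 44 of 45 symbols matched.

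The members and lists were chosen with earlier results of these data known. By the rule for names, genes are given list by list where the body share differed by at least 10 points between 2 lists, the start site changed state or a differential region was met. Others are given by class, and of the further lists those with a start site that changed between preadipocytes and adipocytes are named. Genes cited as neighbours or as ligand and receptor were added after values were seen. Alternatives covered LAD length, gaps, overlap, transcript and region choices.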

Additional observations from a re-analysis of the deposited data

How the results depend on the processing

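Of 64 alternative counts, 46 stayed within 1.5 times the reported count, and of 81 alternative differences in body share 62 moved by less than 10 points, 18 by more and 1 changed sign. Small differences could vanish within these 10 points, as those of Sema3a did with LADs of at least 100 kb. With only LADs of at least 100 kb, the genes meeting a LAD fell to 3 in preadipocytes, 3 in adipocytes, 1 in the single knockdown and 1 in the double knockdown, the latter 2 both Plxna4. The single knockdown list then held 0 start sites, as the LAD over that of Sema3d was 99.25 kb long and just missed the limit. This list differed from adipocytes for 4 genes, and 3 pathway partners met preadipocyte LADs. Sema6a in the double knockdown minus adipocytes became -9.39 points, because its 33.3 kb LAD was left out. The Sema3c differences, adipocyte minus preadipocyte and double knockdown minus adipocyte, became 0 from -47.97 and 31.4 points, and so did both knockdown differences of Sema5a, while its adipocyte minus preadipocyte difference went from -35.74 to -20.07. Plxna4 in the single knockdown minus adipocytes went from 32.9 to 4.25 points and in the double knockdown from 55.7 to 33.1, and both differences of Sema6d and that of Plxnc1 became 0. Requiring at least 50% of the body left 1, 2, 0 and 1 genes in the 4 lists, 0 for released and 1 for recruited regions, and 3 genes differing between adipocytes and the double knockdown. With LADs under 100 kb left out, the Sema3d difference from adipocytes went from -46.96 to -83.07 points in the single and from -65.03 to -83.07 in the double knockdown, and it went to -24.20 in the single knockdown with gaps closed. Closing gaps also raised start sites in the single knockdown list from 2 to 3, adding Plxna4, and the double knockdown minus adipocyte differences of Sema6d from 13.6 to 24.4 and of Plxna4 from 55.7 to 70.6 points. That of Sema3e went from -57.97 to -75.35 without LADs under 100 kb. Start sites in the double knockdown list rose from 0 to 1, Sema6d, with gaps under 50 kb closed, and to 1 with any transcript start. Counted by start site, released regions held 0 and recruited regions 2 genes. With LADs of at least 30 kb the double knockdown minus adipocyte differences of Sema6d and Plxnc1 became 0. The length and gap settings on body shares, the longest coding transcript and the 100 kb setting on the partner and other guidance lists were chosen after seeing the data. No paired analysis was possible because each condition had 1 library of each construct. Depth was unknown, and without replicates no difference could be set against the variation between cultures.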

Other observations

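Other axon guidance families (netrins, slits, ephrins and their receptors) were examined as 44 genes. Their bodies met a LAD in 13 cases in preadipocytes, 14 in adipocytes, 15 in the single knockdown and 17 in the double knockdown, against 26.2%, 23.3%, 27.5% and 29.5% of all genes. The 44 genes had a median length of 63.7 kb, against 15.4 kb for all genes. No share of genes of like length was computed for them, so the part of length in these body counts was not tested. Their start sites lay in one in 10, 11, 9 and 9 cases, or 22.7%, 25.0%, 20.5% and 20.5% of 44, against 23.3%, 21.2%, 22.6% and 23.8% of all genes. The start sites of 3 differed between preadipocytes and adipocytes. Of these, 2 lay in recruited regions, or 4.55% of 44 against 1.49% of all genes. The other 1 lay in a released region, or 2.27% against 3.51%. Epha7 and Ephb6, receptors of the ephrin family, were at 0% of the body in preadipocytes and 100% in adipocytes, and in the knockdowns at 21.7% and 0% for Epha7 and 13.7% and 2.22% for Ephb6. Unc5a, a netrin receptor, was at 21.9% in preadipocytes and 0% in the other 3 lists.

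In the 423 kb between Sema3a and Sema3e the share in LADs was 20.4% in preadipocytes, 91.1% in adipocytes, 52.9% in the single knockdown and 10.2% in the double knockdown. Speer3 lies in this interval and was at 35.7%, 100%, 100% and 0%. Near Sema5a, the bitter taste receptor gene Tas2r119 was at 100% in preadipocytes and in the double knockdown and at 0% in adipocytes and in the single knockdown.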
